A study of Danio rerio with 6 samples.

Results

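Histone demethylases of the KDM7 and KDM6 families were followed in sorted endothelial cells of the regenerating zebrafish heart, with and without a dominant-negative Brg1. The genes were chosen by name from the 6 count tables (kdm7aa, kdm7ab, phf8, phf2, kdm6a, kdm6al, kdm6ba and kdm6bb), and all 8 were found among the 32520 gene rows. Both groups came from adult zebrafish of strain Tu, 7 days after ventricular resection. GFP-positive cells were sorted from the ventricles of about 15 hearts by the reporter kdrl:eGFP, which marks endothelium and endocardium. DNK fish carried ubi:loxp-DsRed-stop-loxp-DN-xBrg1 together with kdrl:CreER and kdrl:eGFP. In them 4-hydroxytamoxifen, given for 3 days before resection, lets the Cre recombinase remove the stop cassette, so that cells with an active kdrl promoter make the dominant-negative Brg1, a Xenopus form of the SWI/SNF chromatin remodelling ATPase that is altered to block the cell's own. CtrlK fish carried the same silent cassette and reporter without the Cre driver. The protocol gives them the same 4-hydroxytamoxifen, whereas other labels call them untreated or wild-type siblings. The Cre driver is therefore present in DNK alone, as is 4-hydroxytamoxifen if CtrlK was untreated, and the effects of these and of the transgene cannot be told apart. Each group had 3 libraries, and no label says whether a library stands for its own pool of fish. The p-values thus measure only the spread between libraries, which may be technical.

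These enzymes share a Jumonji C (JmjC) catalytic domain, which uses iron and 2-oxoglutarate to oxidise methyl groups on histone lysines. In mammals KDM7A and its relatives PHF8 and PHF2 read trimethylated H3K4 through a PHD finger and remove mono- and dimethyl marks, from H3K9 and, for KDM7A, also from H3K27. KDM6A (UTX) and KDM6B (JMJD3) remove di- and trimethyl marks from H3K27, the marks laid down by Polycomb repressive complex 2 (PRC2), and KDM6B is known in mouse macrophages as a gene induced by inflammatory stimuli. In zebrafish, several of these genes exist as a pair of copies, marked by the last letter of the name.

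The libraries were shallow. Counts assigned to genes came to 174371 to 227373 per library, so that 3 counts correspond to 13.2 to 17.2 CPM (gene counts scaled to a common library total). Of the 32520 genes, 3792 had enough counts to be tested with edgeR's quasi-likelihood test, with genes called where the p adjusted after Benjamini and Hochberg was below 0.05. This called 270 genes, 7.12% of those tested, of which 179 (4.72%) were higher and 91 (2.4%) lower in DNK. The split between directions depended on the scaling. It was 112 higher and 248 lower with library size alone, and 55 and 1024 when scaled to the 200 most abundant genes. With libraries scaled to the summed counts of the 5 rows that name no gene it was 231 and 60. Those rows include reads set aside for low alignment quality, wherever they lay, which made up 58.0% to 59.2% of each library. The median log2 fold change of all tested genes was −0.07 as reported, −0.39 with library size alone and −0.86 when scaled to the 200 most abundant genes. The ratio of reads outside annotated features to gene counts was 4.85 to 6.003 in CtrlK and 3.18 to 3.73 in DNK, so the groups also differed in this measure. For the sorted cell type, each of the 10 endothelial marker IDs had counts. Together they held 1557 to 2217 normalized CPM in CtrlK and 2529 to 2911 in DNK. By edgeR 1 of the 8 tested, vwf, was called higher, beside the 7.12% of all tested genes called. The log2 fold changes of the 8 went both ways, from −0.65 for flt1 to 1.59 for vwf. No row of the tables counts the Xenopus transgene, so it gives no check of the labels.

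Counts of the 8 demethylase genes were scarce except for kdm6ba. Of the 8 genes, 6 had counts in every library and 2, kdm7aa and kdm6a, in 5 of the 6. The filter on low counts admitted 4 of them (kdm7aa, kdm7ab, kdm6al and kdm6ba), and the other 4 are given as raw counts. By edgeR 1 of the 4, kdm7aa, was called, beside the 7.12% of all tested genes.

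**Figure D1:**
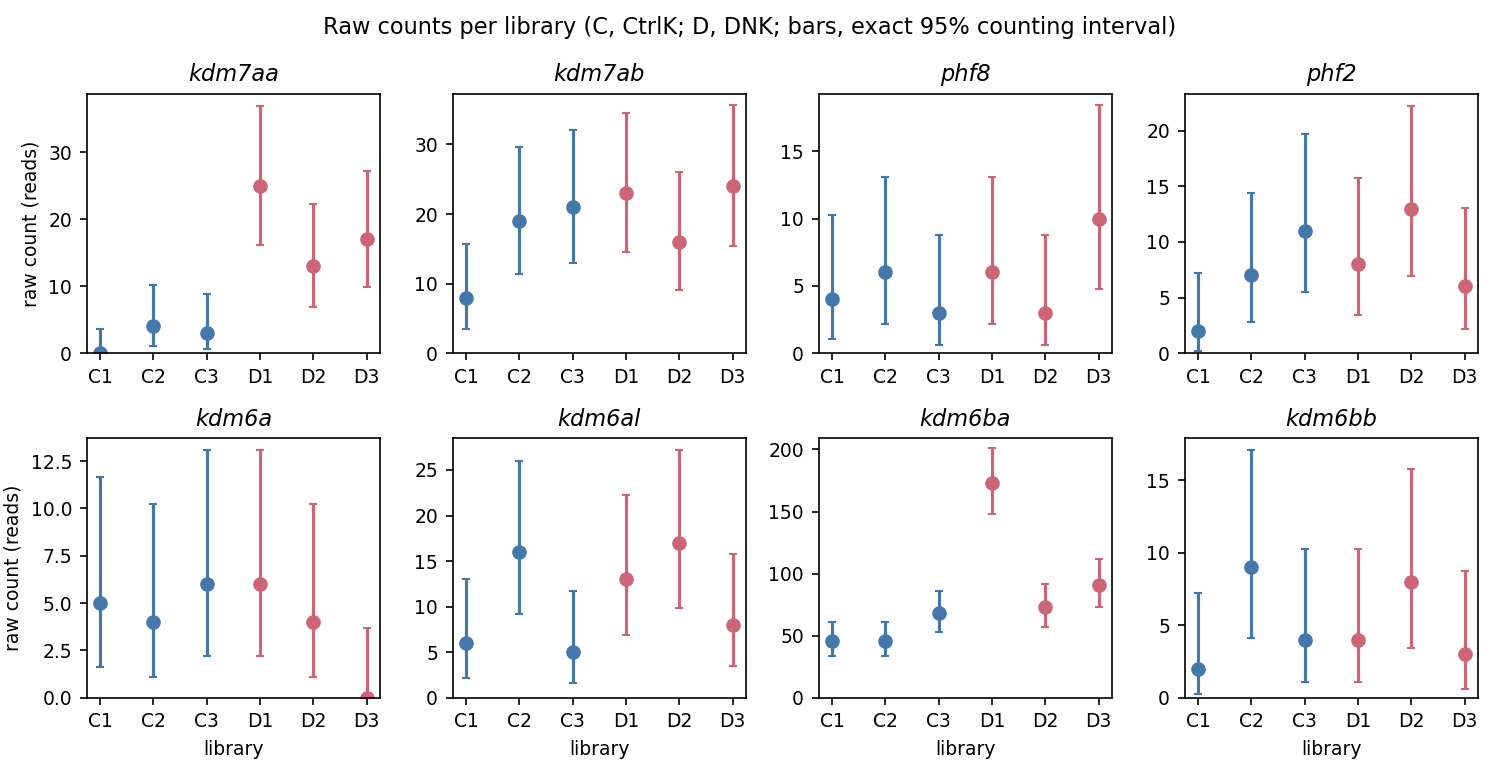
Raw read counts of the 8 demethylase genes (vertical axes, starting at 0) in CtrlK libraries 1 to 3 (C1 to C3, blue) and DNK libraries 1 to 3 (D1 to D3, red), with bars for the exact 95% counting interval. The kdm7aa counts lie between 0 and 4 in CtrlK and between 13 and 25 in DNK, and kdm6ba is the only other gene whose groups do not overlap, as was so, with higher values in DNK, for 16.2% of all tested genes.

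The gene kdm7aa (ENSDARG00000018111) was nearly absent from the control libraries and present in each DNK library. Its counts were 0, 4 and 3 in CtrlK replicates 1, 2 and 3, and 25, 13 and 17 in DNK replicates 1, 2 and 3. In normalized CPM these were 0, 22.1 and 16.2 against 153, 76.8 and 110. The lowest DNK library therefore lay above the highest CtrlK library, and the 0 count in CtrlK replicate 1 allows up to 19.1 normalized CPM. Transcripts of this H3K9 and H3K27 demethylase rose 8.14-fold, from 12.7 ± 11.4 to 113 ± 38.0 normalized CPM (SD, n = 3 each). The log2 fold change was 3.02 with an SE of 0.66 (edgeR adjusted p = 0.0162), and it was the 8th largest of the 179 called rises. Because the libraries hold sorted cells in bulk, more cells that transcribe the gene and more transcript per cell cannot be told apart.

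The count of kdm7aa rests on few reads and on the DNK side of the filter. Its groups summed to 7 and 55 reads, a ratio of 8.43 after scaling, with a 95% counting interval of 3.83 to 21.9. It reached the filter's level of 47.2 CPM in each DNK library and in no CtrlK library. Of the 70 tested genes of that kind, every one had a positive log2 fold change (median 1.87) and 34 were called higher, or 48.6%, against 4.72% over all tested genes. Passing the filter in this way thus already selects for a difference. The call was lost without DNK replicate 1, the library with the highest count (log2 fold change 2.79, adjusted p = 0.0974). It was also lost in limma-voom with quality weights for the libraries (3.25, adjusted p = 0.0746). With the ratio of reads outside features to gene counts as a covariate, the log2 fold change of kdm7aa was 0.98 (adjusted p = 0.960) and no gene was called by edgeR (219 at an unadjusted p under 0.05). Group accounts for 88.9% of the variance of this covariate, so the fit can hardly tell it apart from group. Setting that fit aside, the log2 fold change ranged from 2.28 (scaled to the 200 most abundant genes) to 3.62 (without CtrlK replicate 2), with adjusted p of 0.000923 to 0.0974.

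**Figure D2:**
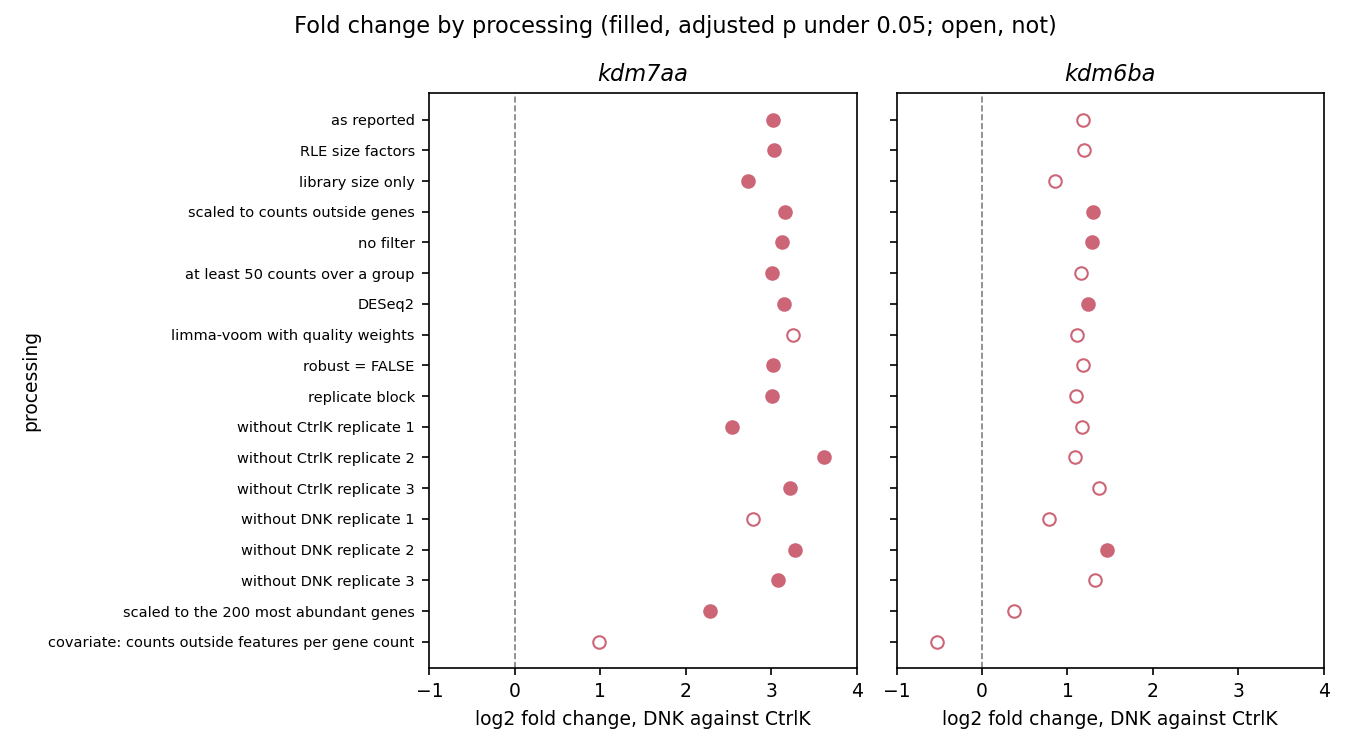
Log2 fold change of kdm7aa (left) and kdm6ba (right) in DNK against CtrlK (horizontal axes) under each processing tried (vertical axis), filled where the adjusted p was below 0.05. The kdm7aa values are positive throughout and fall to 0.98 with the covariate, while kdm6ba lies between 0.37 and 1.46 except with the covariate, where it reverses to −0.53.

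The other copy, kdm7ab (ENSDARG00000018559), was present in both groups, with 8, 19 and 21 counts in the CtrlK libraries and 23, 16 and 24 in the DNK libraries. The groups overlapped, since DNK replicate 2 lay below CtrlK replicates 2 and 3, and CtrlK replicate 1 had the fewest counts of all. Mean levels were 89.7 ± 33.7 normalized CPM for CtrlK and 130 ± 31.7 for DNK (SD, n = 3 each). The log2 fold change was 0.52 ± 0.45 (SE, edgeR adjusted p = 0.504), and it turned to −0.23 with the 200 most abundant genes as the scale and to −0.58 with the covariate.

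A direct comparison of the pair is free of library scaling, since both copies are counted in the same library. Of the reads on kdm7aa and kdm7ab together, kdm7aa held 0 of 8, 4 of 23 and 3 of 24 in CtrlK replicates 1, 2 and 3. These shares were 0%, 17.4% and 12.5%, with 95% Wilson intervals that reach up to 32.4%, 37.1% and 31.0%. In DNK replicates 1, 2 and 3 kdm7aa held 25 of 48, 13 of 29 and 17 of 41 reads, or 52.1%, 44.8% and 41.5%, with intervals that reach down to 38.3%, 28.4% and 27.8%. Each DNK library lay above each CtrlK library, with mean shares of 9.96% ± 8.97 and 46.1% ± 5.43 (SD, n = 3 each). Since kdm7aa was known to differ, these shares are a description. An exact permutation test of the shares gave p = 0.1, the smallest that 3 against 3 libraries allow, so it cannot decide. The copy that held most reads of the pair in CtrlK was kdm7ab, and in DNK the pair was closer to even. Counts are not corrected for transcript length, so these shares describe reads and not the relative number of transcripts of the copies. The sources used here do not state how reads that match both copies were treated.

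**Figure D3:**
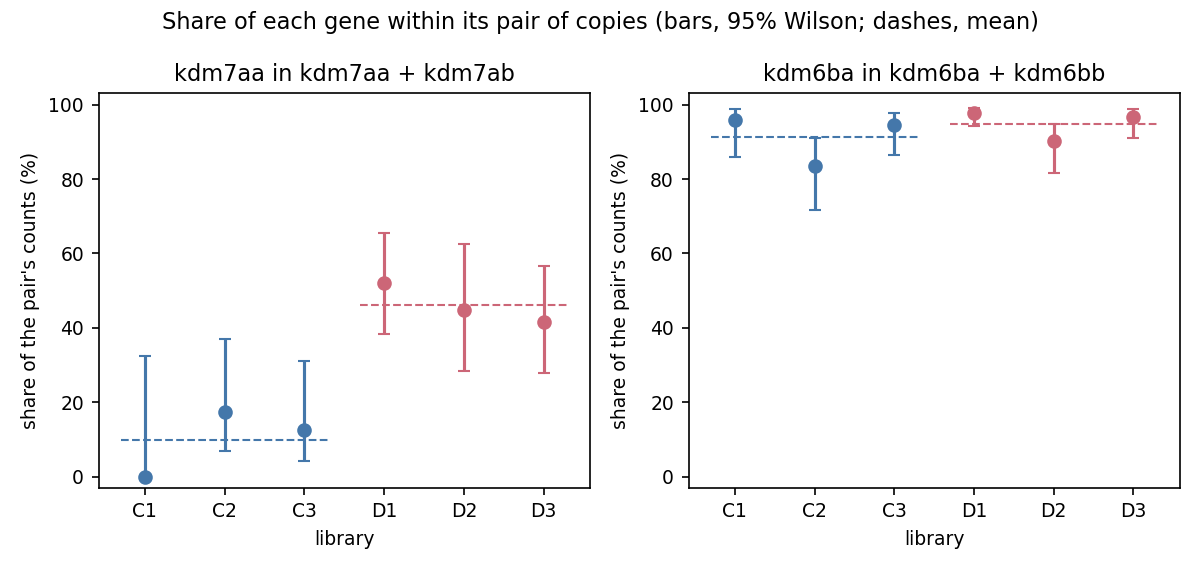
Share of the reads of a pair of gene copies (vertical axes, percent) held by kdm7aa (left) and by kdm6ba (right) in each CtrlK (blue) and DNK (red) library, with 95% Wilson intervals and dashed group means. The kdm7aa share is 17.4% or less in CtrlK and 41.5% or more in DNK, while the kdm6ba share overlaps between the groups.

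The relatives phf8 and phf2 were too scarce to be tested. PHF8, which in human cells demethylates H3K9 and H4K20 near active promoters, had 4, 6 and 3 counts in CtrlK and 6, 3 and 10 in DNK (phf8, ENSDARG00000006584). Its groups overlapped, since DNK replicate 2 had no more reads than the lowest CtrlK library. The summed counts of 13 and 19 gave a ratio of 1.57 with a 95% counting interval of 0.735 to 3.45. PHF2, an H3K9 demethylase known in mammals to act with ARID5B, had 2, 7 and 11 counts in CtrlK and 8, 13 and 6 in DNK (phf2, ENSDARG00000018691). Here too the groups overlapped, and the ratio of summed counts was 1.45 (0.783 to 2.72). For neither gene was a difference between the groups detectable at this depth. Without kdm7aa, the KDM7 family held 14, 32 and 35 reads in CtrlK and 37, 32 and 40 in DNK. With it these sums were 14, 36 and 38 against 62, 45 and 57.

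Among the H3K27 demethylases, kdm6ba (ENSDARG00000088087) held the most reads and had higher values in DNK that did not pass the threshold. Its counts were 46, 46 and 68 in CtrlK and 173, 73 and 91 in DNK. In normalized CPM these were 294, 254 and 367 against 1056, 431 and 589. Each DNK library lay above each CtrlK library, as did 16.2% of all tested genes, and DNK replicate 1 stood apart from the other two DNK libraries. Mean levels were 305 ± 57.4 normalized CPM for CtrlK and 692 ± 325 for DNK (SD, n = 3 each). The log2 fold change of this JMJD3 homologue was 1.18 ± 0.36 (SE, edgeR adjusted p = 0.0608). Without DNK replicate 1 it was 0.78 (adjusted p = 0.287). It did pass with DESeq2 (1.24, adjusted p = 0.0234), with no filter (1.29, 0.0288) and without DNK replicate 2 (1.46, 0.0467). It also passed with libraries scaled to the rows that name no gene (1.30, 0.0424). The adjusted p ranged from 0.0234 to 0.419 apart from the fit with the covariate (−0.53, adjusted p = 0.960). The ratio of summed counts was 2.26, with a 95% counting interval of 1.87 to 2.75, which leaves out the spread between libraries.

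In normalized CPM, and like kdm6ba, the marker sums of several cell types were higher in each DNK library than in any CtrlK library. These were the endothelial, endocardial, fibroblast and mural, and macrophage and neutrophil markers, and their part in the kdm6ba values was not tested. TMM factors were 1.07 to 1.17 in CtrlK and 0.862 to 0.922 in DNK, which raises DNK against CtrlK. The sums were not recomputed under other scalings. The endocardial sum was 862 to 1526 normalized CPM in CtrlK and 1577 to 2154 in DNK, with 0 of 3 tested IDs called by edgeR. Most of its reads came from spock3, whose counts overlapped (87, 159 and 232 in CtrlK, 290, 199 and 209 in DNK). Of 10 listed macrophage and neutrophil markers, 8 had an ID in the name table and 7 had counts, while lyz, which encodes lysozyme, was at 0 in all 6 libraries. The sum was 619 to 1278 normalized CPM in CtrlK and 1533 to 1819 in DNK, although single markers such as cd74b and marco overlapped between the groups. By edgeR 0 of the 4 tested were called, with 2 at an unadjusted p under 0.05, beside 1 called by DESeq2 and 0 by limma-voom. For this and the next lists, the shares over all tested genes were 7.12% called by edgeR and 24.8% at such a p. The fibroblast and mural markers, 15 IDs that all had counts, summed to 1400 to 1672 normalized CPM in CtrlK and 2090 to 2166 in DNK. By edgeR 2 of the 10 tested, COL1A2 and PDGFRB, were called higher, and 3 had an unadjusted p under 0.05. The log2 fold changes of the 10 went both ways, from −0.60 and −0.24 for the MYH11 IDs and −0.39 for col1a1a to 1.70 for PDGFRB. For cardiomyocyte markers the ranges were 640 to 960 and 912 to 1358 normalized CPM, which overlap. By edgeR 1 of 5 tested, atp2a2a, was called higher, and 3 had an unadjusted p under 0.05. None was called by DESeq2 or limma-voom. The log2 fold changes of the 5 went both ways, from −0.52 for TNNT2 and RYR2 to 2.03 for atp2a2a. Erythrocyte marker sums also overlapped, at 55.1 to 97.1 normalized CPM in CtrlK and 90.6 to 177 in DNK, with 0 IDs tested. So did the thrombocyte sums, at 922 to 1181 in CtrlK and 714 to 957 in DNK, with 0 of 3 tested IDs called by edgeR. The lymphocyte marker sum was lower in each DNK library, with 447 to 574 normalized CPM in CtrlK and 159 to 226 in DNK. Most of it was cd8a, with 76, 67 and 78 counts in CtrlK and 31, 23 and 25 in DNK. This was the 1 tested, and it was called lower (log2 fold change −1.38, edgeR adjusted p = 0.0226). The other lymphocyte IDs were scarce and mixed, with 2, 6 and 1 counts against 0, 0 and 0 for rag1 and 3, 0 and 0 against 1, 1 and 1 for lck. The part of these cells in the demethylase values was not tested.

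The second copy, kdm6bb (ENSDARG00000056929), had 2, 9 and 4 counts in CtrlK and 4, 8 and 3 in DNK. The groups summed to 15 reads each, and the ratio was 1.07 (0.489 to 2.36). Of the reads on both KDM6B copies, kdm6ba held 95.8%, 83.6% and 94.4% in CtrlK and 97.7%, 90.1% and 96.8% in DNK. These shares overlapped between the groups, with means of 91.3% ± 6.68 and 94.9% ± 4.15 (SD, n = 3 each).

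Both UTX homologues were scarce. kdm6a (ENSDARG00000061759) had 5, 4 and 6 counts in CtrlK and 6, 4 and 0 in DNK, the only one of the 8 genes with fewer summed reads in DNK. The ratio of its summed counts, 15 and 10, was 0.715 with a counting interval of 0.287 to 1.70. The 0 count in DNK replicate 3 allows up to 19.4 normalized CPM. kdm6al (ENSDARG00000059794) had 6, 16 and 5 counts in CtrlK and 13, 17 and 8 in DNK, in overlapping groups. Its log2 fold change was 0.59 ± 0.53 (SE, edgeR adjusted p = 0.522). It was 1.26 without CtrlK replicate 2 (adjusted p = 0.268) and turned to −0.20 when scaled to the 200 most abundant genes. Without kdm6ba, the KDM6 family held 13, 29 and 15 reads in CtrlK and 23, 29 and 11 in DNK.

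Set side by side, the ratio for kdm7aa stood above those of its relatives. The counting intervals of the other 7 genes all ended below the lower bound of 3.83 for kdm7aa, the highest of them at 3.45 for phf8. Another scaling would move the 8 ratios together and leave this order as it is. The intervals cover counting error only, and kdm7aa was known to be the gene with the largest difference when the genes were chosen. The intervals of 2 genes, kdm7aa and kdm6ba, lay above 1, and those of the other 6 held it. Refitted with no filter, which gives a value for all 8 genes, the log2 fold changes of the 4 scarce genes were 0.76 ± 0.75 for phf8, 0.64 ± 0.65 for phf2, −0.38 ± 0.83 for kdm6a and 0.21 ± 0.77 for kdm6bb. None of these 4 passed (edgeR adjusted p = 0.680, 0.680, 0.881 and 0.948). In the same fit kdm7aa was at 3.13 ± 0.68 (SE). These SEs, unlike the counting intervals, include the spread between libraries.

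**Figure D4:**
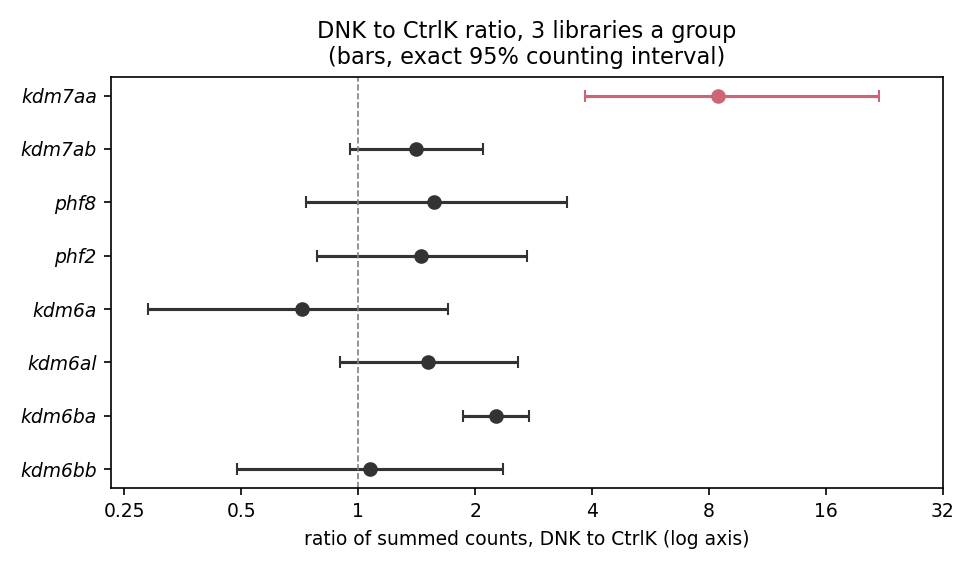
Ratio of DNK to CtrlK counts, summed over 3 libraries a group and scaled by the TMM library sizes (horizontal log axis), for the 8 demethylase genes (vertical axis), with exact 95% counting intervals and a dashed line at 1. The interval of kdm7aa, 3.83 to 21.9, lies to the right of all others, and kdm6a, at 0.715, is the only point below 1. The intervals leave out the spread between libraries.

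Other JmjC genes were compared from a list of their family members, of which 20 IDs were found and 8 tested. By edgeR 0 of the 8 were called, with 2 at an unadjusted p under 0.05, a share near the 24.8% of all tested genes, and 0 were called by DESeq2 or limma-voom. Positive log2 fold changes were found for 4 of the 8, and their median was −0.12 against −0.07 over all tested genes. The smallest p values were those of KDM2A and JMJD1C. KDM2A (ENSDARG00000078133), named for an H3K36 demethylase that binds CpG islands, had 16 counts in each CtrlK library and 6, 3 and 9 in the DNK libraries, without overlap, as in 14.6% of all tested genes in that direction. Its log2 fold change was −1.29 ± 0.51 (SE, edgeR adjusted p = 0.131), and it passed with the 200 most abundant genes as the scale (−2.08, adjusted p = 0.0165). JMJD1C (ENSDARG00000079939), of the KDM3 family, had 29, 10 and 28 counts in CtrlK and 44, 33 and 51 in DNK. This too was without overlap, and the log2 fold change was 1.02 ± 0.43 (SE, edgeR adjusted p = 0.155).

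The enzymes that write the marks, and their partners, showed no called gene as first tested. Of 9 IDs for H3K9 methyltransferases only SETDB1 (ENSDARG00000099021) could be tested, with 23, 48 and 26 counts in CtrlK against 16, 18 and 18 in DNK (log2 fold change −0.78 ± 0.41, edgeR adjusted p = 0.255). Of the 12 IDs for PRC2 subunits and cofactors 4 were tested and 0 called (0 at an unadjusted p under 0.05, and 0 by DESeq2 and limma-voom), which so few genes do not set apart from the 7.12% of all tested genes called and the 24.8% at that p. The catalytic subunit EZH2 had 85, 44 and 47 counts in CtrlK and 91, 53 and 43 in DNK, and the PRC2 genes with the smallest p were SUZ12 (ENSDARG00000070256, −0.91 ± 0.59, but −0.09 without CtrlK replicate 2) and JARID2 (ENSDARG00000062268, −0.79 ± 0.57). KDM6A works within the KMT2C/D methyltransferase complexes. Of their 10 listed IDs 3 were tested and 0 called by edgeR, DESeq2 or limma-voom, nor was any at an unadjusted p under 0.05, with log2 fold changes of −0.52 ± 0.34 for KMT2D and 0.32 ± 0.40 for KMT2C (ENSDARG00000075560). The demethylase KDM1A, which has no JmjC domain, had one of 0.11 ± 0.45. Of 8 IDs for readers of H3K9 methylation 2 were tested, CBX1 (ENSDARG00000004189, −0.20 ± 0.44) and UHRF1 (0.17 ± 0.46). Among those too scarce to test, a second CBX1 ID (ENSDARG00000054442) had 2, 0 and 0 counts in CtrlK and 8, 6 and 4 in DNK. For cbx3b, also too scarce, the counts were 1, 1 and 4 against 0, 0 and 0. The groups of these did not overlap, as was so for 16.2% of all tested genes with DNK higher and 14.6% with DNK lower. That share was not computed for genes too scarce to test. The other scarce readers overlapped, with summed reads of 24 in CtrlK and 18 in DNK for CBX3 and 33 and 13 for CBX5. For MPHOSPH8 the sums were 19 and 16, and for CDYL 4 and 2. Scaled to the 200 most abundant genes, 4 of the 18 tested related IDs (22.2%) passed as lower in DNK (KDM2A, SETDB1, SUZ12 and KMT2D). This stood beside 1024 of all 3792 tested genes, whose median was −0.86. Of the 9 related IDs with positive values 8, all but JMJD1C, turned negative under that scaling, and 5 did so with library size alone, namely KDM4B, KDM1A, EZH2, KMT2C (ENSDARG00000075560) and UHRF1.

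**Figure D5:**
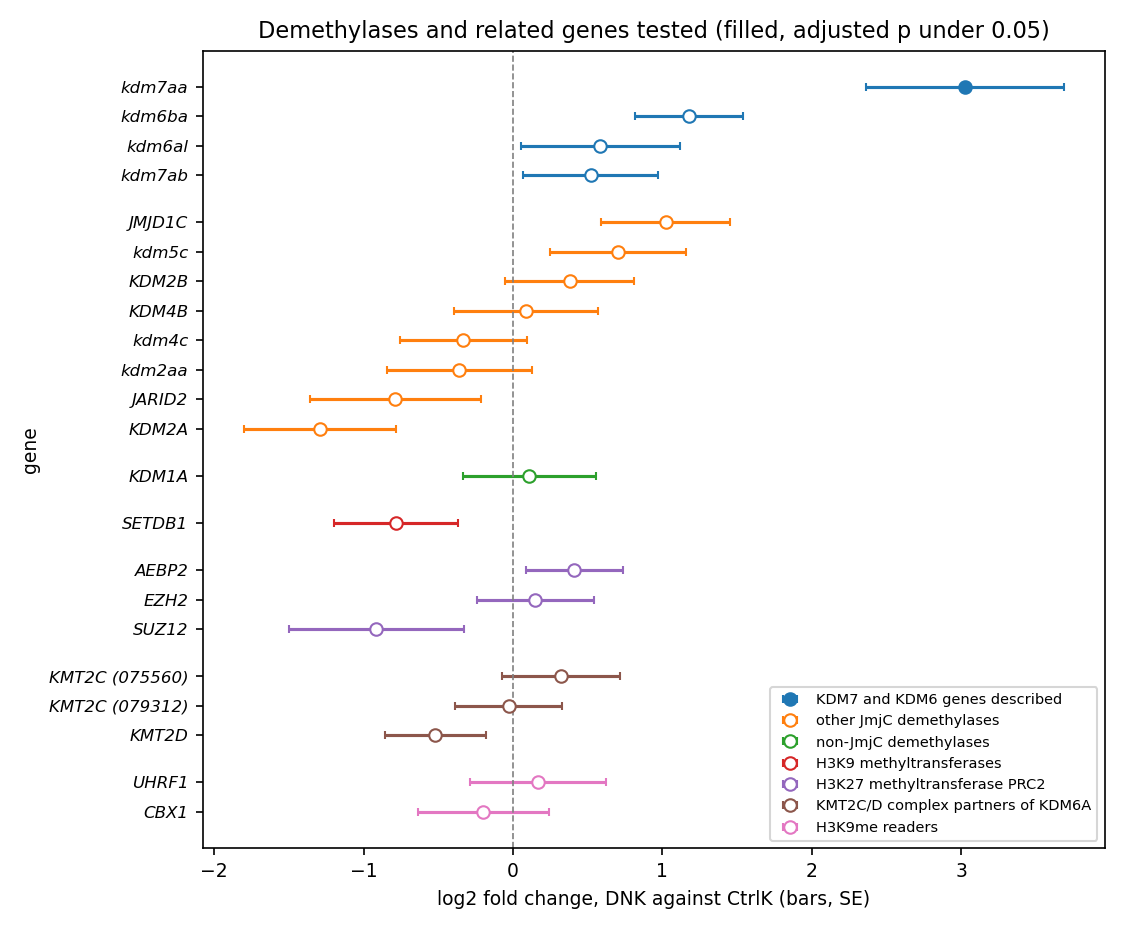
Log2 fold changes with SE in DNK against CtrlK (horizontal axis) for the 4 tested KDM7 and KDM6 genes and 18 related genes (vertical axis, coloured by group, filled where the adjusted p was below 0.05). Only kdm7aa is filled, at 3.02, and the related genes spread on both sides of 0, from −1.29 for KDM2A to 1.02 for JMJD1C, as scaled with TMM factors.

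The 5 tested genes whose profile over the 6 libraries was most like that of kdm7aa were PLIN2, selenop, NETO2, LTN1 and MFN2. Likeness was the root-mean-square difference of log2 CPM, each centred on its own mean, and it was 0.26 for PLIN2 and 0.38 for MFN2, the first and the last of the 5. PLIN2, a coat protein of lipid droplets, had 3, 9 and 8 counts in CtrlK and 38, 32 and 31 in DNK. selenop, a secreted selenium carrier, had 14, 48 and 69 against 194, 148 and 199. NETO2, an auxiliary subunit of kainate receptors, had 1, 5 and 4 against 31, 30 and 31. LTN1, a ubiquitin ligase of ribosome quality control, had 0, 9 and 2 against 25, 15 and 17, and MFN2, which fuses mitochondrial outer membranes, had 3, 12 and 5 against 38, 29 and 50. As in kdm7aa, CtrlK replicate 1 was the lowest library of all 5, and none overlapped between the groups. Of the other 3 tested KDM7 and KDM6 genes kdm6ba was nearest to kdm7aa, at 0.85, and ranked 249th among the 3791 other tested genes. kdm7ab ranked 491st and kdm6al 812th. These genes were picked for likeness in the same libraries, so the values describe the profile and were not tested.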

How the data were processed

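RNA-seq was made from sorted cardiac endothelial cells in 3 CtrlK and 3 DNK libraries, with groups taken from the sample titles. Per the labels' protocols, RNA was reverse-transcribed and amplified by a MALBAC method. The deposited files hold raw counts, 1 whole number per Ensembl gene and library. The submitters' processing notes name Trim Galore 0.6.0, HISAT2 2.1.0, HTSeq 0.6.1, DESeq2 1.22.2 and GRCz11, with no role or order. A strand setting is not given in the sources used here; without it, overlapping and antisense genes cannot be told apart.

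The 5 rows that name no gene held 98.5% to 98.9% of each library and entered neither library sizes nor tests. Amplified reads without molecular identifiers are not independent molecules, so intervals and floors cover counting error only. A table pairing IDs with symbols named 29201 of the 32520 rows. It lists kdm7ab as KDM7A and kdm6ba as KDM6B, matched without the copy letter, and the other 6 genes by symbol.

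Genes kept by filterByExpr (minimum count 10) were tested in edgeR 4.0.16 (R 4.3.3, TMM, robust glmQLFit, glmQLFTest, ~ group), and SE is the absolute log2 fold change over the square root of F. These steps were tested on simulated data. Normalized CPM uses the summed counts of the 3792 tested genes in each library, scaled by TMM factors. In it 3 counts correspond to 16.2 to 19.4, so its values are higher than plain CPM. The log2 CPM for profiles uses a prior count of 2. Alternatives included DESeq2 1.42.0 and limma-voom (limma 3.58.1), the latter always with quality weights for the libraries. The 2 added after seeing the data were scaling to the 200 most abundant genes and the covariate. Members and lists were chosen with earlier results of these data known. Named genes are the 8 members, per related list the called genes or else the 2 with the smallest p, and the 5 nearest profiles. EZH2 and the readers of H3K9 methylation too scarce to test were named beside them after their values were seen. No pair of libraries agreed within sampling noise (chi-square per degree of freedom 3.08 to 9.18).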

Additional observations from a re-analysis of the deposited data

How the results depend on the processing

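The number of genes called was 270 as reported, 89 to 277 when 1 library was left out (160 and 104 without CtrlK replicates 1 and 2, and 89, 136 and 159 without DNK replicates 1, 2 and 3), 1079 with the 200 most abundant genes as the scale and 0 with the covariate, and stayed within 1.5 times of 270 under the other alternatives. The log2 fold change of kdm7aa was positive under all 17 alternatives, and its call was lost under 3, with limma-voom (3.25), with the covariate (0.98) and without DNK replicate 1. Over the libraries left out in turn it ran from 2.54 to 3.62. The count of called demethylases, 1 as reported, was 2 when scaled to the rows that name no gene, with no filter and with DESeq2. The same count was 0 with limma-voom and with the covariate, and 0 to 2 when 1 library was left out. Among the tested demethylases other than kdm7aa it was 0 as reported, and 0 to 1 when 1 library was left out. It was 1, kdm6ba, when scaled to the rows that name no gene, with no filter and with DESeq2. Reversed values were those of kdm7ab (−0.23 scaled to the 200 most abundant genes, −0.58 with the covariate), kdm6al (−0.20 under that scaling) and kdm6ba (−0.53 with the covariate), and the cause was not tested. The covariate is nearly collinear with group. With at least 50 counts required over a group, kdm6al was not tested. The replicate number as a block gave 253 called genes and 3.01 for kdm7aa (adjusted p = 0.0165) and changed no call among the demethylases. Same-numbered libraries did not deviate together (correlations −0.11, −0.003 and −0.04 for numbers 1, 2 and 3), so the numbers were not taken as pairs. With under 20 reads in a group, as for kdm7aa in CtrlK and for phf8, kdm6a and kdm6bb in both groups, depth limits what can be detected and how well a change is measured.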
